A study of Homo sapiens with 5 samples.

Results

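Olfactory receptor genes were examined in the peaks of acetylated lysine 130 of histone H2A (H2A-K130ac), as measured by ChIP-seq in C4-2B cells. Members were the peaks whose annotated gene symbol was OR, a number, letters and a final number, which leaves out symbols with a further letter such as those of most OR pseudogenes. They made up 314 of 67806 peaks and 158 of 13632 genes in the list from abiraterone-treated cells, and 275 of 91398 peaks and 156 of 16504 genes in the list from Romidepsin-treated cells. Together they covered 232 genes, of which 82 had a peak in both lists. C4-2B is a prostate cancer line, although the labels call its tissue breast cancer. Abiraterone blocks androgen synthesis and Romidepsin inhibits histone deacetylases. Each treatment had 1 library of C4-2B cells, and no list from vehicle-treated C4-2B cells was analysed here. The labels give 0.5 µM for Romidepsin in a protocol that names VCaP cells, and the dose of abiraterone for this assay was not given in the sources used here. No test between treatments can be made with 1 library each, so shares are given with exact (Clopper-Pearson) 95% binomial intervals, which cover counting error only. Read counts per peak were not in the lists, and the depth behind each peak is unknown.

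Olfactory receptors are G protein-coupled receptors that bind odorants in the cilia of olfactory sensory neurons, where each neuron expresses a single receptor gene and keeps the rest of the family in repressed chromatin. The genes lie in tandem clusters on many chromosomes, and the coding sequence of each usually sits in a single exon. Class I receptors, families 51 to 56, form 1 large cluster on chromosome 11, and class II receptors are spread over the genome. The family is held to be silent outside the nose with few exceptions, among them OR51E1 and OR51E2 in prostate. RNA was not measured in these files, so whether the genes were silent in these cells was not tested.

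Of the 232 genes, 230 are protein-coding and 2 are transcribed pseudogenes (OR10J3 and OR1D4) in RefSeq. The gene models in the annotation had a median length of 948 bp in both lists, against 32895 bp for all other genes of the abiraterone list and 27888 bp of the Romidepsin list. Lengths were multiples of 3 in 143 of 158 olfactory receptor models in the abiraterone list and 136 of 157 in the Romidepsin list. For most of the family the annotated start site is therefore the start of the coding length, and a distance to it is not a distance to the first base of the transcript.

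The sequence before the RefSeq start is shown for genes with a peak at or next to the annotated start. Peaks spanned the start of OR6Y1, OR4D2 and OR2A5 in the abiraterone list and of OR11H6, OR6B3 and OR1N1 in the Romidepsin list. OR8B8 had a peak within 1 kb in each list, and OR51E1, known from prostate, had a Romidepsin peak inside its first 1 kb. The 250 bases before the RefSeq start are given 5′ to 3′ on the gene's strand, with coordinates of GRCh38.p14. Peak coordinates elsewhere are those of the lists, in hg19, and were not mapped between builds. RefSeq starts need not be those of the annotation. The RefSeq start was an ATG at OR11H6 and OR1N1 but not at OR6Y1, OR4D2, OR6B3, OR8B8 and OR51E1. The annotated lengths of OR6Y1, OR4D2, OR6B3 and OR8B8 are multiples of 3. The bases shown for them may therefore precede a start other than the one at the peak. Capitals mark CG dinucleotides.
OR6Y1, chr1:158554406-158554655, minus strand: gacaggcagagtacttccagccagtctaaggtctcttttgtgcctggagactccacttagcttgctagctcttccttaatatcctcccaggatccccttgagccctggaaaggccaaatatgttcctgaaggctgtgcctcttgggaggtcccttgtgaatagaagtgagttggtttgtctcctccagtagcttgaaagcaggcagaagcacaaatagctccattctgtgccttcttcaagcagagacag
OR4D2, chr17:58166732-58166981, plus strand: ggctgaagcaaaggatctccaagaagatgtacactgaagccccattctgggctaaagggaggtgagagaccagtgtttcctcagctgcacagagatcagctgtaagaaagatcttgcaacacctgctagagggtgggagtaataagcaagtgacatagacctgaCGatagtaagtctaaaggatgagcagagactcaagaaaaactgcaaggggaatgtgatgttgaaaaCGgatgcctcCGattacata
OR11H6, chr14:20223460-20223709, plus strand: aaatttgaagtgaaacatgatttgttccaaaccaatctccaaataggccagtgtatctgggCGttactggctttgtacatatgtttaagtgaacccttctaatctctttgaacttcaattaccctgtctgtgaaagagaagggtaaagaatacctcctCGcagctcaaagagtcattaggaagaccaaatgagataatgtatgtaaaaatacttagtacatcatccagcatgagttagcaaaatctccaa
OR6B3, chr2:240053522-240053771, minus strand: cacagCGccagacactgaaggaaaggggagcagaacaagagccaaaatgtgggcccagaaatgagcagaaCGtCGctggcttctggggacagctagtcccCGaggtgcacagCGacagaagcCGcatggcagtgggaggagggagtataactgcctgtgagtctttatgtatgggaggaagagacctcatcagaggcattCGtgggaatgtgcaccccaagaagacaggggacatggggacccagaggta
OR1N1, chr9:122527294-122527543, minus strand: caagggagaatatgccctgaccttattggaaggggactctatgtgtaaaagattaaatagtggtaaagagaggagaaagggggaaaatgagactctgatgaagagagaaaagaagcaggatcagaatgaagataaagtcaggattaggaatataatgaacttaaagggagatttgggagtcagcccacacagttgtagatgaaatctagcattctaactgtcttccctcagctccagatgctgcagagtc
OR8B8, chr11:124445697-124445946, minus strand: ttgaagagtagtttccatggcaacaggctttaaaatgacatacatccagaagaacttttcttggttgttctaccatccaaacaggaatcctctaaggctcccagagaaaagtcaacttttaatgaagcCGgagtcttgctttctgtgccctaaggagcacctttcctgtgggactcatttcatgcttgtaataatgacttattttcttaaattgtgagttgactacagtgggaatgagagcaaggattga
OR51E1, chr11:4643732-4643981, plus strand: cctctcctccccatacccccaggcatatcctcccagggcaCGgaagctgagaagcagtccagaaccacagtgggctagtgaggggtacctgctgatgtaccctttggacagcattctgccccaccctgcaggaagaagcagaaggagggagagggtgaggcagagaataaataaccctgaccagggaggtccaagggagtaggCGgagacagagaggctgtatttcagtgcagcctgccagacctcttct

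These stretches were poor in CG. OR6Y1 and OR1N1 held 0, OR8B8 held 1, OR11H6 and OR51E1 held 2 each, OR4D2 held 3 and OR6B3 held 7. GC content ran from 37.2% for OR11H6 to 57.6% for OR51E1. Across RefSeq windows of 300 bases (250 before and 50 after the start), the 312 olfactory receptor promoters had a median of 1 CG and 37.7% GC, against a median of 22 CG and 63.0% GC in the 15531 promoters of other protein-coding genes. No CG at all was found in 66 olfactory receptor promoters (21.2%) and in 1.53% of the others. In 127 (40.7%) the RefSeq start was itself an ATG, against 2.59% of other protein-coding genes.

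The letters TAATTA, the core bound by homeodomain proteins such as LHX2, were found on either strand in 22.8% of the olfactory receptor windows and in 4.98% of all 27305 windows. TATAAA, the TATA box, was found in 34.9% and 12%. GGGCGG, the GC box, was found in 3 olfactory receptor windows (0.962%) and in 44.6% of all windows. None of the windows of the 7 genes shown held any of these letters. The 72 olfactory receptor windows whose gene had a peak within 3 kb in either list had a median GC of 40.0%, and the 240 without had 37.3%. TAATTA stood in 22.2% of the former and 22.9% of the latter. Median GC was 37.7% in the olfactory receptor windows and 58.3% in all windows. What part base composition had in the motif shares was not tested.

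A start site was more often close to an olfactory receptor peak than to a peak of another gene. In the abiraterone list 72 of 314 olfactory receptor peaks (22.9%, interval 18.4 to 28.0%) were within 3 kb of the annotated start site, a window called the promoter here, against 7.58% of all peaks in the list and 7.51% (7.31 to 7.71%) of the peaks of other genes. In the Romidepsin list 49 of 275 (17.8%, 13.5 to 22.9%) were in promoters, against 8.85% of all peaks and 8.82% (8.64 to 9.01%) of those of other genes. Within 1 kb lay 23 abiraterone peaks (7.32%) and 19 Romidepsin peaks (6.91%) of the family, where 3.17% and 3.52% of all peaks did. The share was highest in the abiraterone list for the receptors of chromosome 3 at 50.0% of 16 peaks, chromosome 7 at 45.5% of 22 and chromosome 19 at 45.5% of 11, while the chromosome 11 receptors, with 131 peaks, stood at 14.5%. The chromosomes were not ordered alike in the Romidepsin list, where chromosome 3 had 0 of 10 peaks in promoters, and chromosome 6, with 0% of 12 abiraterone peaks, had 45.5% of 11. The olfactory receptor share exceeded that of the other genes of the same chromosome on 9 of 11 chromosomes with at least 5 olfactory receptor peaks in each list for abiraterone and on 7 of 11 for Romidepsin.

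Some smaller gene families also had high promoter shares. Taste receptors, the gustatory counterpart of the olfactory family, had 30% of 20 abiraterone peaks and 28.9% of 38 Romidepsin peaks in promoters. Keratin-associated proteins, which are hair shaft components encoded by small clustered genes, had 41.7% of 24 and 43.6% of 55. Zinc finger genes of chromosome 19 stood at 19.6% and 20.8%, and cytosolic ribosomal protein genes at 17.7% and 16.1%. The intervals of olfactory receptors overlapped those of each of these families in the abiraterone list and those of all but the keratin-associated proteins in the Romidepsin list. Other genes with gene models under 1200 bp, the length of most olfactory receptor models, had 6.95% and 8.64% of their peaks in promoters. Receptor pseudogenes, whose symbols end in a further letter, had 4.69% of 64 peaks (0.977 to 13.1%) and 6.12% of 49 (1.28 to 16.9%).

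**Figure D1:**
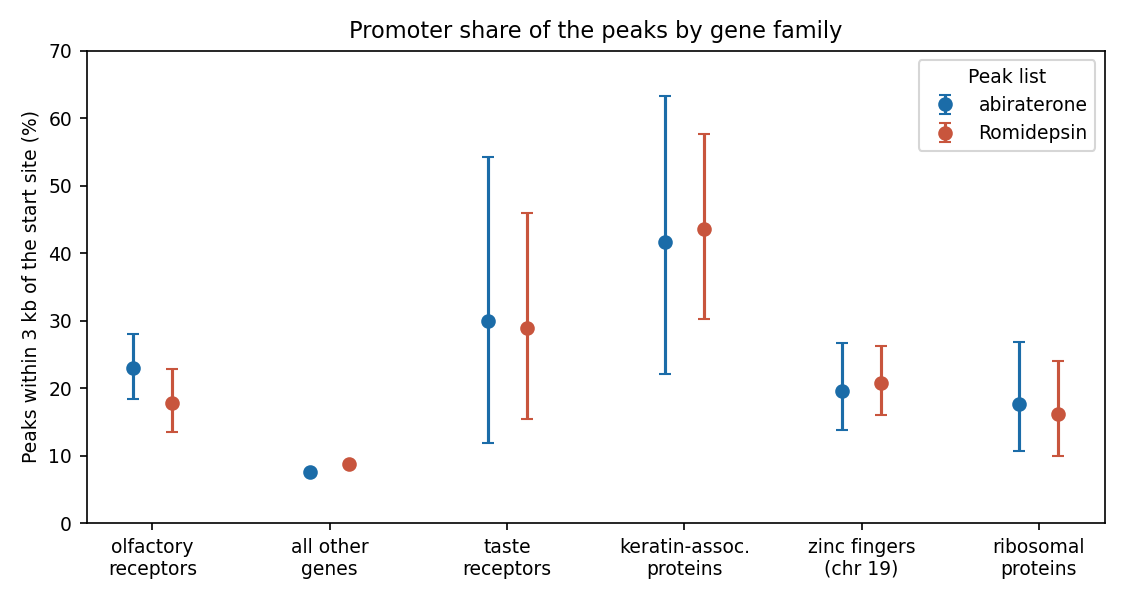
Share of peaks within 3 kb of the annotated start site (y axis, percent) by gene family for the abiraterone and Romidepsin lists, as points with exact 95% binomial intervals. Olfactory receptors stand at 22.9% and 17.8%, above all other genes at 7.51% and 8.82% and within the range of the smaller families.

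Counting genes in place of peaks changed the comparison. Of the olfactory receptor genes with a peak, 33.5% had one in the promoter in the abiraterone list, against 28.4% of other genes, but 27.6% did in the Romidepsin list, against 36.5% of other genes. Of all 390 protein-coding olfactory receptor genes in RefSeq, whether or not a peak was annotated to them, 157 (40.3%, 35.4 to 45.3%) had a peak in the abiraterone list, where 56.6% of all protein-coding genes had one, and 154 (39.5%, 34.6 to 44.5%) in the Romidepsin list, where 68.6% had one. A promoter peak was found for 52 (13.3%, 10.1 to 17.1%) with abiraterone and for 43 (11%, 8.10 to 14.6%) with Romidepsin, against 17.0% and 26.0% of all protein-coding genes. Neither list held a peak for 160 of the 390 (41.0%), and for 23.7% of all protein-coding genes. The family's interval for a promoter peak lay below the share of all protein-coding genes in the Romidepsin list and held it in the abiraterone list. The smaller families also lay below all protein-coding genes in the abiraterone list. A peak was found there for 39.3% of taste receptors, 12.8% of keratin-associated proteins, 39.6% of chromosome 19 zinc finger genes and 41.9% of ribosomal protein genes. With Romidepsin these shares were 67.9%, 34.0%, 52.5% and 46.5%. For promoter peaks they were 14.3%, 8.51%, 10.8% and 16.3% with abiraterone and 28.6%, 20.2%, 18.8% and 19.8% with Romidepsin.

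**Figure D2:**
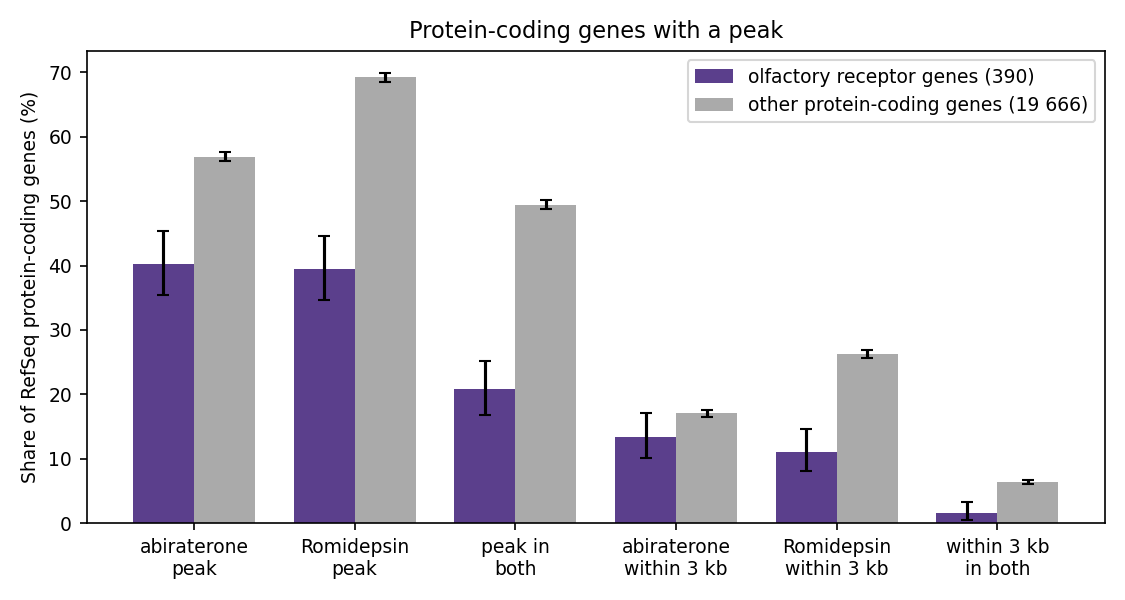
Share of RefSeq protein-coding genes (y axis, percent) with a peak, or with a peak within 3 kb of the start site, in the abiraterone list, the Romidepsin list or both, for 390 olfactory receptor genes and 19666 other genes, as bars with exact 95% binomial intervals. The olfactory receptor bar is the lower of the pair in each of the 6 groups, and for abiraterone promoter peaks it is 13.3% against 17.0%.

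Class I and class II genes had a peak at similar rates. Of 55 class I genes, 21 had a peak in each list (38.2%, 25.4 to 52.3%), and of 335 class II genes 136 (40.6%) and 133 (39.7%) did. Peaks in both lists were found for 7 class I genes and 74 class II genes. Class I peaks were in promoters in 27.5% of 40 abiraterone cases and 14.7% of 34 Romidepsin cases, and class II peaks in 22.3% of 274 and 18.3% of 241. Among families with at least 30 peaks in each list, family 2 had promoter shares of 20.3% and 34.7%, family 4 of 27.8% and 9.38%, and family 5 of 25.7% and 5.26%, so the order of the families was not the same in the 2 lists.

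The median distance from an olfactory receptor peak to its annotated start was 9602 bp with abiraterone (quartiles 3645 and 20823 bp) and 11336 bp with Romidepsin (5052 and 24211 bp). Peaks of other genes had medians of 49826 bp and 40869 bp. The smaller families had short medians too, 11676.5 and 12315 bp for taste receptors and 6169 and 3560 bp for keratin-associated proteins. Chromosome 19 zinc finger genes had 14611.5 and 9738 bp, and ribosomal protein genes 22890.5 and 21010 bp. Other genes with gene models under 1200 bp had 64090 and 51961 bp. What part the spacing of clustered genes had in these distances was not tested. Within 10 kb lay 50.6% and 44.7% of olfactory receptor peaks, against 18.8% and 21.8% of the peaks of other genes, and within 100 kb 95.2% and 93.1%, against 66.0% and 70.4%. They did not favour one side, since 49.0% and 48.4% were upstream of the start, against 45.1% and 45.0% for other genes. By annotation class 60.5% and 62.9% were intergenic (other genes 48.4% and 47.9%), 14.3% and 18.2% were intronic (39.7% and 38%), and 5 and 2 peaks carried an exon label, 1.59% (0.519 to 3.68%) and 0.727% (0.0882 to 2.60%), against 2.71% and 3.31% for other genes. The limits of their own gene were overlapped by 14 of 314 abiraterone and 13 of 275 Romidepsin peaks, a count that was not made for other genes.

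**Figure D3:**
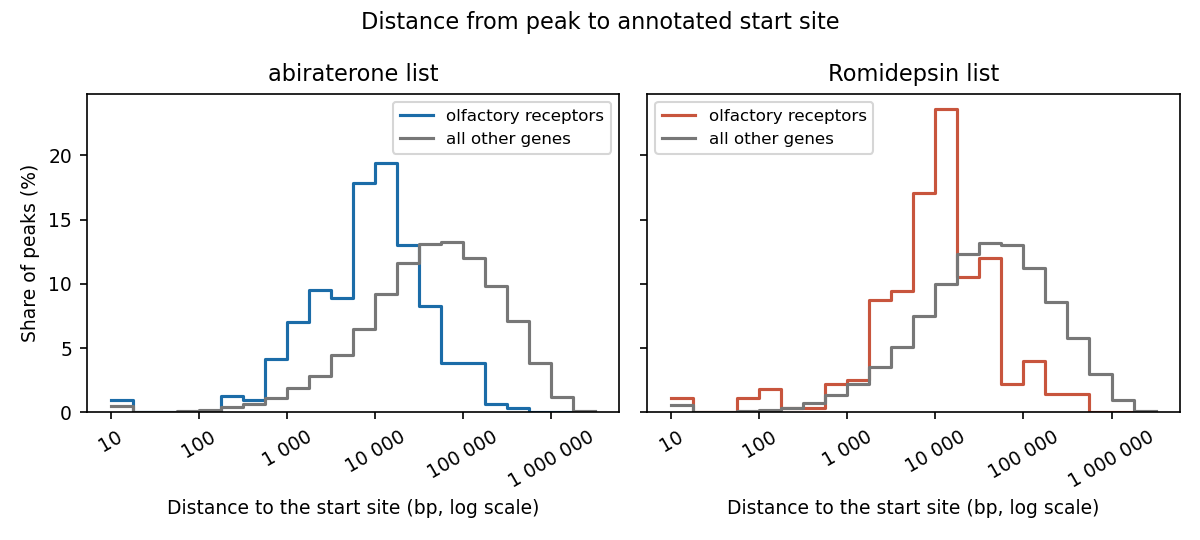
Distribution of the distance from peak to annotated start site (x axis, bp on a log scale, in equal bins of log10 distance, with distances under 10 bp placed at 10) as a share of peaks (y axis, percent), for olfactory receptors and all other genes of each list. The olfactory receptor curves lie to the left, with medians of 9602 and 11336 bp against 49826 and 40869 bp.

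Some peaks were far from the gene they were annotated to. Over 100 kb away lay 15 abiraterone peaks of 8 genes and 19 Romidepsin peaks of 4 genes. OR4E2, on chromosome 14 beside the T cell receptor alpha and delta locus, had the farthest, at 458602 bp with abiraterone and 442467 bp with Romidepsin. It also had the most peaks of any member with Romidepsin, 11, and 5 with abiraterone, and 9 and 3 of these were over 100 kb away. In such cases the annotation names the nearest start in its gene set, and a tie of the peak to the receptor was not tested.

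Olfactory receptor genes carried few peaks each. Among genes with a peak the mean was 1.99 ± 1.20 (SD over 158 genes, median 2) with abiraterone and 1.76 ± 1.33 (SD over 156 genes, median 1) with Romidepsin, against means of 5.01 and 5.57 and medians of 3 for other genes. A single peak was found for 68 olfactory receptor genes (43.0%) and 87 (55.8%), against 28.5% and 25.6% of other genes. At least 5 peaks were found for 6 (3.80%) and 5 (3.21%), against 31.5% and 35.6%. The highest number was 8 for OR2K2 with abiraterone, where other genes reached 119, and 11 for OR4E2 with Romidepsin, where they reached 107. The smaller families compared above had few peaks per gene too. Taste receptors had 20 abiraterone peaks over 11 genes and 38 Romidepsin peaks over 19. Keratin-associated proteins had 24 over 12 and 55 over 32, and chromosome 19 zinc finger genes had 158 over 95 and 260 over 127. Ribosomal protein genes had 96 over 37 and 118 over 41. Receptor pseudogenes had more per gene, with 64 over 11 and 49 over 11. Other genes with gene models under 1200 bp had means of 4.10 and 4.62.

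**Figure D4:**
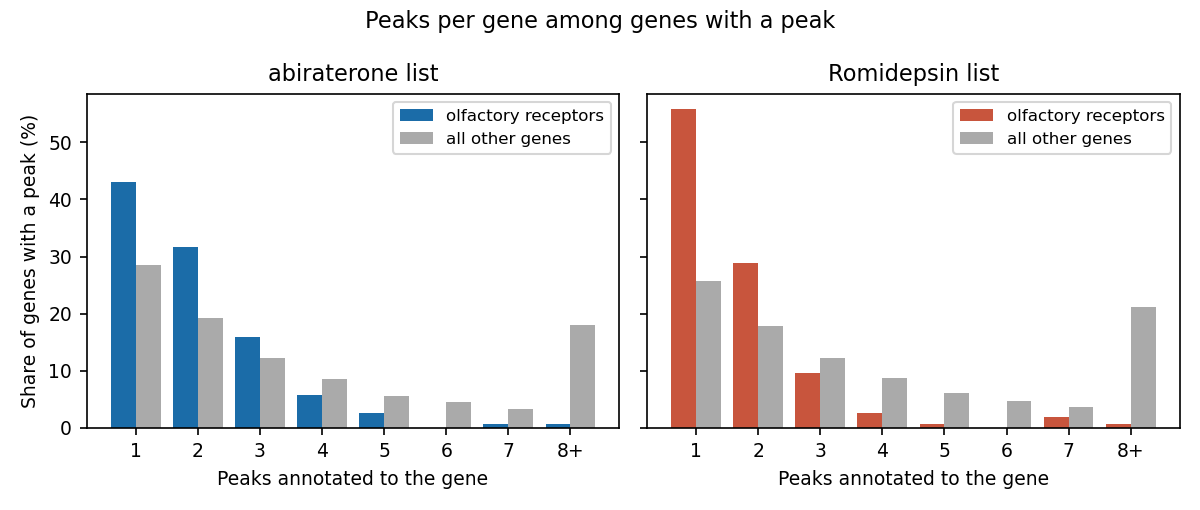
Share of genes with a peak (y axis, percent) by the number of peaks annotated to the gene (x axis, the last bin holding 8 or more), for olfactory receptors and all other genes of each list, as bars. Genes with 1 peak are 43.0% and 55.8% of the olfactory receptors and 28.5% and 25.6% of other genes.

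The genes with the most peaks were partly shared, as OR4E2 and OR1J1, which were among those with most Romidepsin peaks, also had 5 abiraterone peaks each, the number found for OR13G1 and OR14J1. OR2K2, a class II receptor of chromosome 9, had 8 abiraterone peaks between 21541 and 138878 bp from its start, of folds over control from 2.69 to 4.69, and 1 Romidepsin peak at 73160 bp with a fold of 3.44. OR9G4 on chromosome 11 had 7 abiraterone peaks, all at least 12998 bp away, and 0 Romidepsin peaks. OR13G1 on chromosome 1 had 5 abiraterone peaks, all upstream, with 3 of them in the promoter at 1481, 1813 and 2671 bp. Its only Romidepsin peak was 9641 bp upstream. In the Romidepsin list OR1D5, OR1J1 and OR5AK2 followed OR4E2 with 7 peaks each. Those of OR1D5 on chromosome 17 were all labelled as introns of the neighbouring gene, those of OR1J1 on chromosome 9 lay from 12303 to 46895 bp away, and the nearest of OR5AK2 on chromosome 11 lay 11257 bp away. With abiraterone, OR1D5 had 3 peaks and OR5AK2 had 1.

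Peak strength is given by the authors as a fold over control, used here within a list only. In the abiraterone list the median fold rounded to 2.83 for olfactory receptor peaks and for other peaks, with upper quartiles of 2.85 and 3.56. A fold of at least 3 was reached by 23.9% of olfactory receptor peaks and 26.9% of all peaks. In the Romidepsin list the median was 3.32 for olfactory receptors and 2.61 for other genes, and 150 of 275 olfactory receptor peaks (54.5%, 48.5 to 60.5%) had a fold of at least 3, against 42.7% of all peaks. This share was 57.1% in promoters, 53.8% in intergenic peaks and 54.0% in introns, against 42.3%, 41.8% and 43.9% for other genes. It was above that of the other genes of the same chromosome on 9 of 11 chromosomes, the exceptions being 9 and 17, while for abiraterone it was above on 2 of 11. The smaller families all had a Romidepsin median of 2.61. Inside the receptor clusters described below, a fold of 3 was reached by 53.4% of 174 olfactory receptor peaks in the Romidepsin list. Peaks of other genes there reached it in 41.2% (27.6 to 55.8%) of 51 cases. With abiraterone the order was the reverse, 24.1% (18.4 to 30.6%) of 203 olfactory receptor peaks against 43.6% (27.8 to 60.4%) of 39.

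A strict threshold was passed by a minority of olfactory receptor peaks, about as often as by all peaks of each list. A −log10 q of at least 2, a q of 0.01 or less, was reached by 68 olfactory receptor peaks with abiraterone (21.7%, 17.2 to 26.6%), where 24.9% of all peaks reached it, and by 7 with Romidepsin (2.55%, 1.03 to 5.17%), where 2.73% did. The median −log10 q was 1.57 for olfactory receptors and other genes alike with abiraterone, and 1.28 against 0.717 with Romidepsin. The values were coarse. A single −log10 q, 1.57, was shared by 154 of 314 abiraterone peaks (49.0%), and 0.717 by 112 of 275 Romidepsin peaks (40.7%), against 50.5% and 51% of the peaks of other genes. Widths were alike, with medians of 317 and 328 bp against 340 and 349 bp, and 24.2% and 19.3% of olfactory receptor peaks were within 3 bp of the narrowest width, 125 bp, against 21.2% and 15.2%.

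The strongest abiraterone peak of the family was at OR2Z1, chr19:8842109-8842343, 718 bp inside the gene and across its annotated end, at a fold of 6.64, its −log10 q being 7.04. OR2Z1 had no other peak in either list. It was followed by OR9I1 (chr11:57903751-57904110, fold 5.57, 16835 bp upstream in an intron of a neighbour) and OR5B2 (chr11:58193386-58193993, fold 5.52, 2600 bp upstream). OR10H4 and OR4E2 were next with folds of 4.75.

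The strongest Romidepsin peak was 2893 bp upstream of OR8A1, chr11:124436721-124437072, at a fold of 5.72, its −log10 q being 3.27. The next was at its cluster neighbour OR8B12, chr11:124403777-124404372, with a fold of 5.23 and 9178 bp from the start. OR10C1 on chromosome 6 and OR2L13 on chromosome 1 had folds of 5.18, at 7042 and 4639 bp, and OR4E2 had one of 5.16 at 247895 bp. These 5 peaks and those of OR10S1 and OR7A17 were the 7 with a −log10 q of at least 2. OR10S1 and OR7A17 were named after their values were seen.

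The lists met at few sites, for olfactory receptors as for all peaks. A peak of the other list overlapped 7 abiraterone peaks (2.23%, 0.900 to 4.54%), where 4.04% of all abiraterone peaks were overlapped, and 6 Romidepsin peaks (2.18%, 0.805 to 4.69%), where 2.90% were. The 6 genes were OR1J1, OR2AT4, OR2B3, OR5K1, OR6B1 and OR8A1, and at each the shared site was over 11 kb from the start. The OR2B3 site, chr6:29039387-29039787 with abiraterone and chr6:29039119-29039788 with Romidepsin, was 15303 and 15302 bp from the start, with folds of 2.85 and 4.35. At OR8A1 the peaks began at 124451854 and 124451851 on chromosome 11, 11889 and 11886 bp downstream of the start, with folds of 2.84 and 3.44. OR2AT4, a receptor known for its response to a sandalwood odorant in skin, had its shared site at 42133 and 41904 bp. OR5K1 had it 12621 and 12889 bp upstream, and OR1J1 at 12505 and 12303 bp. At OR6B1 a Romidepsin peak of 200 bp bridged 2 abiraterone peaks of 127 and 125 bp, about the same site upstream of the gene.

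Gene by gene the overlap was below that of all genes. Of the olfactory receptor genes, 82 had a peak in both lists, 51.9% (43.8 to 59.9%) of those with an abiraterone peak and 52.6% of those with a Romidepsin peak. Of all genes, 86.0% and 71.1% did. The smaller families had 41.7% and 15.6% for keratin-associated proteins and 58.9% and 44.1% for chromosome 19 zinc finger genes. Ribosomal protein genes had 59.5% and 53.7%, and taste receptors 100% and 57.9%. The olfactory receptors also had fewer peaks per gene than other genes, and the part of this in the difference from all genes was not tested. A promoter peak in both lists was found for 6 genes, OR13A1, OR2A2, OR2A5, OR2T11, OR6K3 and OR8B8, which is 1.54% of the 390 protein-coding genes (0.567 to 3.32%), where 6.29% of all protein-coding genes had one. At OR2A2 on chromosome 7 the peaks were 1164 bp (abiraterone, fold 4.72) and 2403 bp (Romidepsin, fold 4.26) downstream of the start, past the end of the coding length. At OR2A5 in the same cluster the abiraterone peak spanned the start with a fold of 3.75 and the Romidepsin peak lay at 1919 bp with a fold of 4.26. OR13A1 had its abiraterone peak 2887 bp upstream and its Romidepsin peak at 1973 bp of a longer model. OR6K3 had them 2407 and 1267 bp upstream, and OR2T11 had abiraterone peaks 1263 and 1657 bp upstream and a Romidepsin peak at 2567 bp. OR8B8 was the 1 gene with a peak within 1 kb in both lists, at 667 bp with a fold of 1.88 for abiraterone and 101 bp upstream with a fold of 2.57 for Romidepsin. None of these pairs overlapped.

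The prostate receptors had peaks in 1 list each. OR51E1, known for raised expression in prostate cancer, had 0 abiraterone peaks and 1 Romidepsin peak, chr11:4665303-4665889, 147 bp inside the start, at a fold of 2.61, its −log10 q being 0.717, which were also the medians over Romidepsin peaks of other genes. OR51E2, its neighbour, a prostate receptor that responds to short-chain fatty acids, had 0 Romidepsin peaks and 3 abiraterone peaks. A pair of 125 bp peaks, chr11:4708576-4708700 and chr11:4708881-4709005, lay in its intron 1 at folds of 2.69, the −log10 q being 1.37, and chr11:4728712-4729040 lay 9636 bp upstream at a fold of 2.4, its −log10 q being 0.72. None of these 4 peaks had a q of 0.01 or less.

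Relative to other genes, the family leaned to the abiraterone list. Receptor genes with a peak numbered 158 with abiraterone and 156 with Romidepsin, against 13474 and 16348 other genes. There were 1.14 olfactory receptor peaks with abiraterone for each with Romidepsin (0.968 to 1.35, which holds 1). The peaks of other genes stood at 0.741. The ratio was 0.526 for taste receptors, 0.436 for keratin-associated proteins, 0.608 for zinc finger genes of chromosome 19 and 0.814 for ribosomal protein genes. It exceeded that of the other genes of the same chromosome on 9 of the 11 chromosomes, among them chromosome 11 (1.14 against 0.777), chromosome 1 (1.69 against 0.767) and chromosome 7 (1.38 against 0.988). The exceptions were chromosome 5 (6 and 8 peaks) and chromosome 17 (8 and 18 peaks). The lists come from 1 library each, so treatment, library and depth cannot be told apart.

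Most of the family lies in clusters, which were built here by joining genes with a gap of at most 500 kb, where at least 5 genes were joined. They numbered 15 on 9 chromosomes, with 186 of the 232 genes over 9.97 Mb. Since the annotation gives limits only to genes near some peak, the clusters are bounded by such genes. They held 242 abiraterone peaks, or 24.3 per Mb (exact Poisson interval 21.3 to 27.5), against 25.5 on the rest of the same chromosomes, and 225 Romidepsin peaks, or 22.6 per Mb (19.7 to 25.7), against 30.5. With a gap of up to 1 Mb the abiraterone density turned to lie above the rest, 26.4 against 24.9, and the Romidepsin density stayed below, 27.3 against 30.3. Of the peaks in the narrower clusters, 203 and 174 were annotated to olfactory receptors. The remainder belonged to genes inside the clusters, such as the globins HBE1 and HBB within the class I cluster and the ubiquitin ligase genes TRIM5, TRIM6 and TRIM34 beside them. Olfactory receptor peaks inside the clusters were in promoters in 24.6% and 20.1% of cases, and those outside in 19.8% and 13.9%.

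The clusters differed among themselves. The class I cluster from OR52K2 to OR52W1, with 35 genes, had 46 abiraterone and 49 Romidepsin peaks, 26.3 and 28.0 per Mb against 28.6 and 36.6 on the rest of chromosome 11. The cluster from OR4A16 to OR5AK2 near the centromere of chromosome 11, with 24 genes, was sparser in both lists, with 25 peaks (15.2 per Mb, 9.83 to 22.4) and 24 peaks (14.6 per Mb, 9.34 to 21.7). OR5AN1 to OR4D9, 5 genes on chromosome 11, had 0 abiraterone peaks, which allows up to 24.4 per Mb, and 4 Romidepsin peaks. The limits of a cluster are set by its genes, and OR5AN1 and OR4D9 had 3 abiraterone peaks each outside them, the nearest at 38732 and 30259 bp. OR9K2 to OR10P1 on chromosome 12 had 8 and 2, the latter 3.94 per Mb (0.477 to 14.2) against 31.1. The chromosome 7 cluster from OR2F2 to OR2A7, which holds OR2A2, OR2A5 and OR6B1, was the densest with abiraterone, at 18 peaks or 55.5 per Mb (32.9 to 87.7) against 28.8, and the only one whose interval lay above the rest of its chromosome. The interval lay below it for 2 clusters with abiraterone and 5 with Romidepsin.

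**Figure D5:**
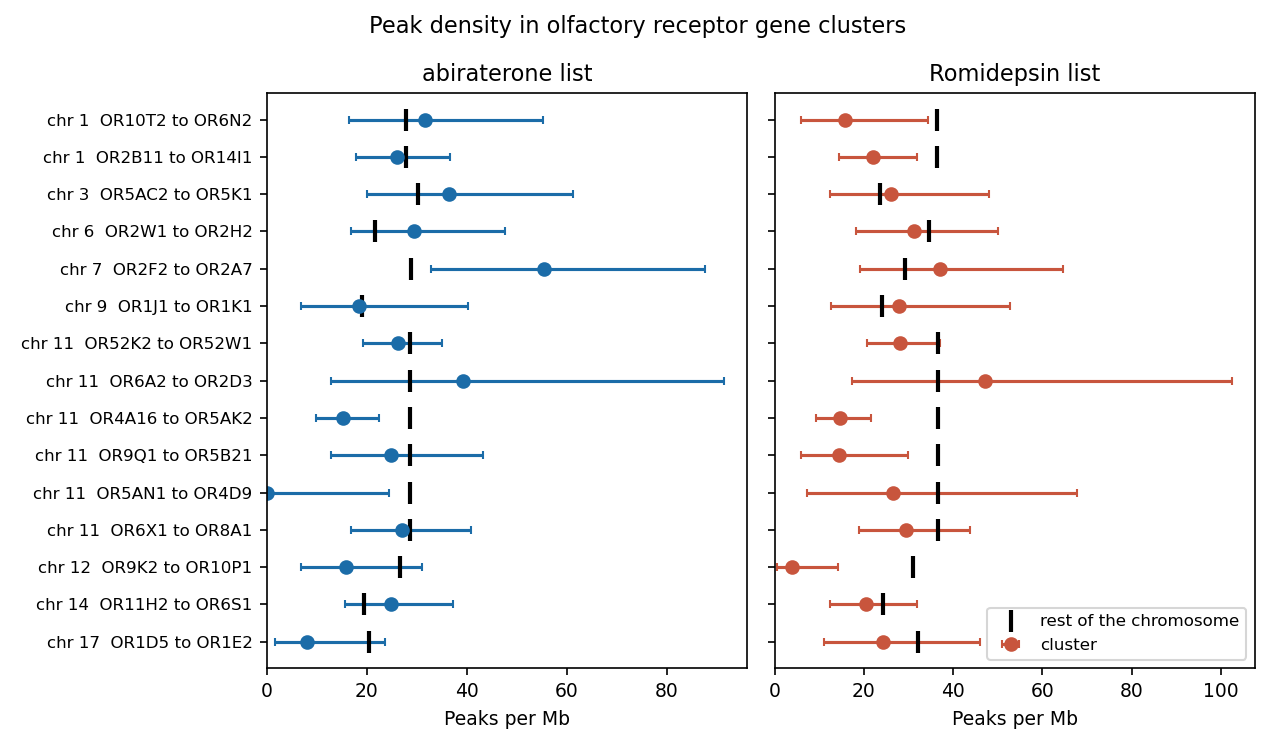
Peaks per Mb (x axis) in 15 olfactory receptor gene clusters, named by chromosome and first and last gene, as points with exact 95% Poisson intervals, and on the rest of the same chromosome (black bars), for each list. With Romidepsin 11 clusters lie below the rest of their chromosome and with abiraterone 9 do, and the chromosome 7 cluster stands above it at 55.5 per Mb with abiraterone.

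Within the clusters the summits were set against the base pairs that the genes take. Of the abiraterone summits 32 of 242 (13.2%, 9.22 to 18.2%) fell in an annotated olfactory receptor gene, and of the Romidepsin summits 20 of 225 (8.89%, 5.51 to 13.4%), where the genes take 8.91% of the base pairs. For gene models under 1200 bp, which leave out long models such as that of OR2L13, the shares were 3.31% and 2.22% against 1.71% of base pairs. Within 3 kb of a listed olfactory receptor start fell 47 abiraterone summits (19.4%, 14.6 to 25%) and 32 Romidepsin summits (14.2%, 9.94 to 19.5%), against 10.4% of base pairs. A start is listed only where its gene was nearest to some peak, which by itself raises the share of summits close to listed starts, and by how much was not tested.

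Many receptors are near-identical to a neighbour, and how reads that map to several copies were treated was not given in the sources used here. What part such reads had in these values was not tested.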

How the data were processed

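H2A-K130ac ChIP-seq peak lists of 2 C4-2B libraries, abiraterone and Romidepsin, were analysed. The 3 VCaP samples were not analysed here. The authors aligned reads with Bowtie 2 and called peaks with MACS2. For each peak the authors deposited its fold over control, its −log10 p and its −log10 q, and the deposited score is the whole part of 10 times the −log10 p. The authors' reporting summary describes broad peaks called at a q of 0.01 against vehicle, while the lists hold narrow peaks, most of them above that q, and are named as called over input. That summary speaks of duplicates, and whether they were pooled into the 1 list per treatment was not given in the sources used here. The annotation gives each peak its nearest start site, gene and distance. Each annotated table lacks 1 peak, which had become its header, and the conservative and optimal annotated tables were identical.

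The submitters' processing notes name hg38, but the last peak on chromosome 1 ends at 249191832, past the end of that chromosome in hg38, so coordinates were read as hg19. RefSeq tables of GRCh38.p14 served for names, gene types (18316 of 18406 gene identifiers matched) and promoter sequences (188 of 232 olfactory receptor genes matched). Library totals in reads were not in the lists, so the depth is unknown and precision is given by counting intervals alone.

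Members and lists were chosen with earlier results of these data known. Genes named in the text were OR51E1 and OR51E2, the 3 with most peaks and those of the 5 highest folds in each list (ties settled by symbol), those with a peak within 1 kb in both lists and those at overlapped peaks. OR14J1 and OR5AK2, tied with named genes, were named after their values were seen. The genes with a promoter peak in both lists or a peak across the start, the ratio between the lists, the share with a fold of at least 3 and the values by chromosome were added after the data were seen. Overlap was 1 shared base pair. Scripts were tested on simulated lists and run in Python 3.11.15 with numpy, pandas, scipy and matplotlib. Alternatives tried were peaks past the −log10 q threshold of 2 only, the conservative table, a pattern with pseudogenes, no chromosome 11, other distance windows, each gene counted once, 50% overlap, a q of 0.05, a 1 Mb gap and, added later, gene models under 1200 bp and lists without OR4E2.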

Additional observations from a re-analysis of the deposited data

How the results depend on the processing

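No paired analysis was possible because the libraries, 1 per treatment, form no pairs. Of 77 alternatives over 21 results, 49 moved the value by less than its counting interval (counts by less than 1.5 times). Among the 49 are the runs with the conservative table, which was identical to the optimal one and so could not move a value. The other 28 follow, abiraterone first. With a −log10 q of at least 2 there remained 68 and 7 olfactory receptor peaks, 1.21 and 1.00 per gene, with 3.57% and 28.6% of genes in both lists, 0% and 0% overlapped, 6.02 and 0.602 peaks per Mb in clusters, a Romidepsin distance of 9178 bp and a ratio between the lists of 9.71 (other genes 6.77). Without chromosome 11 there were 183 and 160 peaks and an abiraterone promoter share of 29.0%. The promoter share was 7.32% and 6.91% within 1 kb, and 33.5% and 27.6% with each gene counted once, where other genes had 28.4% and 36.5%, so the comparison with other genes turned in the Romidepsin list. With pseudogenes the abiraterone distance was 12582 bp and peaks per gene 2.24. Overlap of at least 50% of both peaks left 0.637% and 0.727%, and a q of 0.05 or less was met by 91.1% and 20.7% (other genes 89.2% and 12.6%). A gap of 1 Mb raised the Romidepsin cluster density to 27.3 per Mb, and gene models under 1200 bp held 3.31% and 2.22% of cluster summits. The cause of these changes was not tested, apart from the smaller numbers of peaks that stricter settings leave. Leaving out OR4E2, run for the number of peaks, the promoter share, the distance, the peaks per gene, the share with a fold of at least 3 and the ratio between the lists, moved none of these beyond its interval (the number of peaks by less than 1.5 times). Depth limits all of these values, since each list comes from 1 library as labelled and gives no read count per peak.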

Other observations

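The genes through which olfactory receptors signal and are chosen had peaks about as often as other genes. Of 18 such genes, 12 had a peak with abiraterone and 12 with Romidepsin, 66.7% each, where 56.6% and 68.6% of all protein-coding genes did. A peak in both lists was found for 9 of the 18. These genes together held 63 abiraterone and 105 Romidepsin peaks. EBF1, a transcription factor of olfactory neurons and B cells, had 25 and 30 peaks, the nearest Romidepsin peak at 761 bp with the nearest abiraterone peak at 7298 bp. ANO2, a calcium-gated chloride channel of the cilia, had 9 and 19. GNAL, the olfactory G protein alpha subunit, had 5 and 22, with 0 and 2 in the promoter. RIC8B, a folding factor for that subunit, had 3 and 11. LHX2, a homeodomain regulator of receptor choice, had 9 and 6, among them a Romidepsin peak with a fold of 6.88.

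The receptor transporters RTP1 and RTP2, which bring receptors to the cell surface, had 2 and 3 abiraterone peaks and 0 Romidepsin peaks, 1 of them spanning the RTP1 start with abiraterone. CNGA4 and CNGB1, subunits of the cyclic nucleotide-gated channel, and OMP, the olfactory marker protein, had 0 abiraterone peaks and 1, 2 and 2 Romidepsin peaks. GNG13, EMX2 and KDM1A had 0 in both lists. Receptor pseudogenes, whose symbols end in a further letter, had 64 abiraterone and 49 Romidepsin peaks over 11 genes each. In promoters were 4.69% (0.977 to 13.1%) and 6.12% (1.28 to 16.9%) of these peaks, against 7.58% and 8.85% of all peaks.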
